A study of Rattus norvegicus with 6 samples.

Results

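The lipid droplet genes described here, 10 in number, were followed in RBL-2H3 cells given PIO: the perilipin coat genes Plin1 to Plin5, the lipase genes Pnpla2, Lipe and Mgll, and the lipase regulators Abhd5 and Hilpda. They are 10 of the 22601 genes in the deposited table and were picked by symbol, each with a single entry. RBL-2H3 cells come from a basophilic leukemia of the rat, serve in the laboratory as stand-ins for mast cells, and are labelled WT in genotype. The series holds 3 libraries of cells treated with PIO, the PPARγ agonist of the study, at 10 µM for 6 h, and 3 control libraries of cells without PIO. The labels state neither a vehicle for the controls nor whether replicates came from separate cultures, so a p-value here speaks only of variation among the libraries, which may be technical.

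A lipid droplet is a store of neutral lipid, mainly triglyceride and sterol ester, inside a single layer of phospholipid. Perilipins coat its surface and control the access of lipases. Triglyceride is taken apart in steps: adipose triglyceride lipase, the product of Pnpla2, removes the first fatty acid, hormone-sensitive lipase (Lipe) acts mainly on the diglyceride, and monoglyceride lipase (Mgll) splits what remains into glycerol and a fatty acid. Abhd5 encodes the coactivator of adipose triglyceride lipase, and Hilpda encodes a small droplet protein that inhibits it. Several of these genes, Plin2 and Hilpda among them, are known targets of PPARs, and mast cells use droplets as a store of arachidonate for eicosanoids.

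The values are FPKM, fragments scaled to gene length and to the library total, and so are levels per length that can be set side by side between genes. They resolve into whole reads, out of 14048202 to 14322720 reads in the PIO libraries and 14105533 to 15084729 in the control libraries. The cell type matched its label in part: the mast cell genes Ms4a2, Hdc and Cpa3 averaged 825, 296 and 191 FPKM in PIO libraries and 861, 298 and 195 FPKM in control libraries, whereas Tpsab1, Mcpt1 and Mcpt8 were listed at 0 in all 6. Of 12 adipocyte markers, none reached the mean of 0.5 FPKM needed for testing, 6 were listed at 0 throughout, and their summed level was 0.131 to 0.274 FPKM in PIO libraries and 0.138 to 0.322 FPKM in control libraries. Pparg, the gene of PPARγ, is in the adipocyte list. It had 0 reads in each PIO library and 1, 0 and 1 reads in control replicates 1 to 3. Of 12 macrophage markers only Cd68 was tested, and their summed level was 1.77 to 2.09 FPKM with PIO and 1.69 to 2.00 FPKM in control. Control replicate 3 stood apart in the stress gene Atf4, which had 243, 240 and 255 FPKM with PIO and 279, 277 and 617 FPKM in control replicates 1 to 3. Results are therefore given with and without that library where it matters. In RNA from whole cultures, fewer cells that express a gene and less of its RNA per cell cannot be told apart.

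Of the 10 members, 6 reached the mean of 0.5 FPKM, and Hilpda, Plin2 and Mgll had every PIO value above every control value. None of the 6 passed the test over all 10410 genes (limma on log2(FPKM + 0.5), Benjamini-Hochberg adjusted p under 0.05), a threshold that 0.0384% of genes passed in either direction. None passed in limma-voom on recovered reads either. Higher values without overlap were seen in 10.5% of all genes tested and lower ones in 8.09%. Among the 6 members 3 were higher without overlap and 0 lower. The same 3 members were higher at an unadjusted limma p under 0.05 and 0 were lower, against 6.36% and 6.15% of all genes. In all, 4 of the 6 had a log2 fold change above 0, against 54% of all genes. The remaining tested members, Plin3, Abhd5 and Pnpla2, had overlapping groups. The other members, Plin1, Plin4, Plin5 and Lipe, were near or at 0, so any account of the members as a group rests on 6 of 10.

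**Figure D1:**
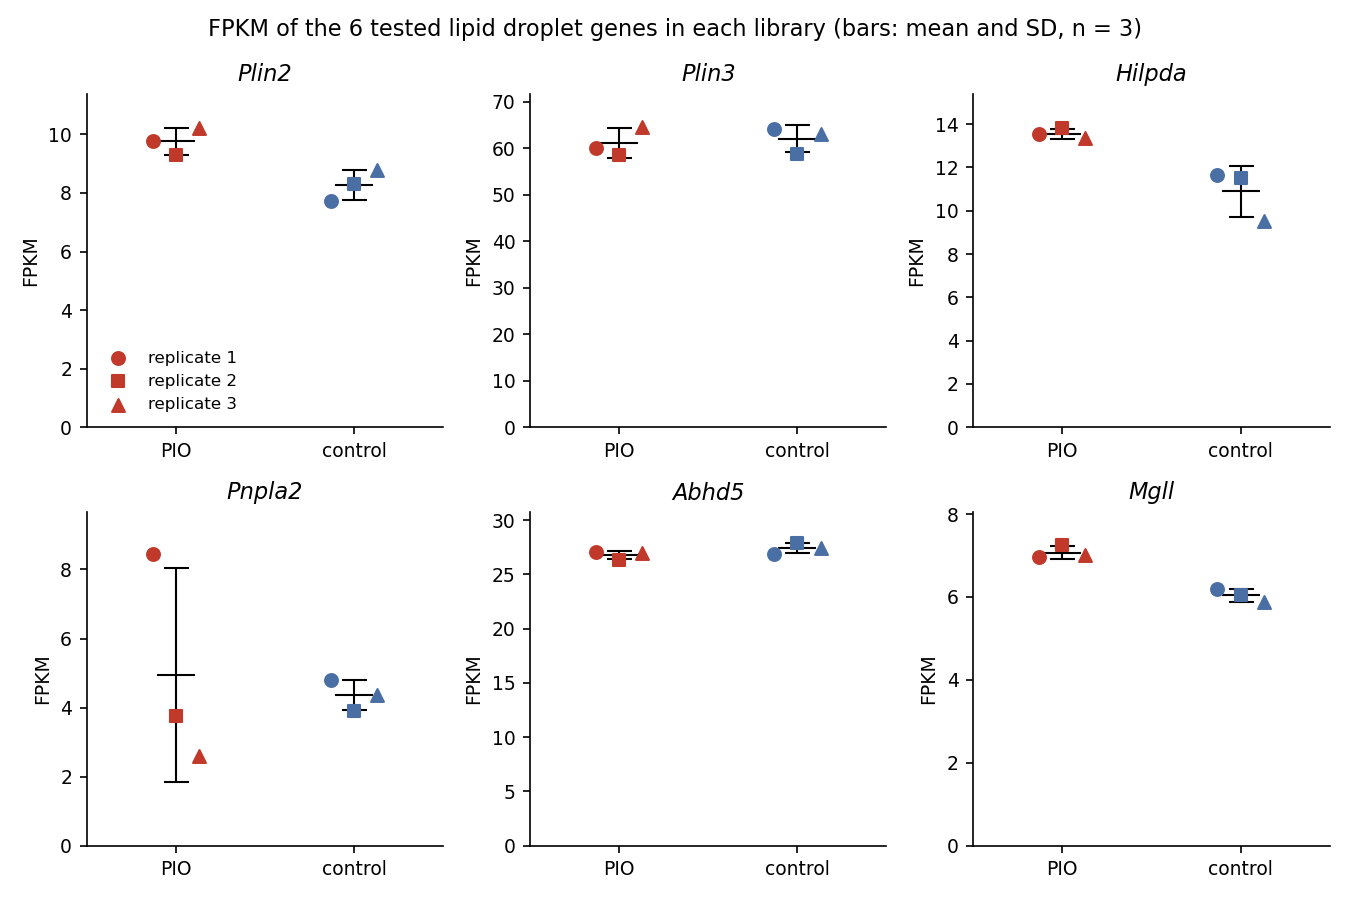
FPKM (vertical axes, from 0) of the 6 tested lipid droplet genes in each library, PIO libraries in red and control libraries in blue, with symbols for replicates 1 to 3, and bars for the mean and SD (n = 3 per group). Hilpda, Plin2 and Mgll are separated between the groups, Plin3 and Abhd5 overlap, and Pnpla2 spreads from 2.61 to 8.46 FPKM within the PIO libraries.

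Among the coats, Plin3 carried most of the perilipin message. Plin3 (GeneID 316130) encodes a widely expressed perilipin that moves between the cytosol and newly formed droplets. It had 60.1, 58.5 and 64.6 FPKM in PIO replicates 1 to 3 and 64.2, 58.7 and 63.0 FPKM in control replicates 1 to 3. The groups overlapped across nearly their whole range. The log2 fold change was -0.021 (SE 0.051, 95% interval -0.14 to 0.096, adjusted p = 0.882, limma). These values rested on 1666 to 1810 reads per PIO library and 1646 to 1925 per control library.

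Plin2 (GeneID 298199) encodes adipophilin, the perilipin that stays bound to droplets in most cells and is degraded when it has none to bind. It had 9.79, 9.28 and 10.2 FPKM in PIO replicates 1 to 3 and 7.73, 8.30 and 8.78 FPKM in control replicates 1 to 3. Every PIO library was above every control library, with a gap of PIO replicate 2 over control replicate 3 that is small beside the ranges of both groups. The group means were 9.77 ± 0.471 FPKM with PIO and 8.27 ± 0.523 FPKM in control (SD, n = 3 each), 18.1% higher with PIO. The log2 fold change was 0.23 (SE 0.066, 95% interval 0.076 to 0.38) and did not pass (adjusted p = 0.304, limma). It lay between 0.18 and 0.27 when any 1 library was left out.

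Set against Plin3 in the same library, Plin2 gave a ratio that does not depend on how the libraries were scaled. The ratio of FPKM values was 0.163, 0.159 and 0.158 in PIO replicates 1 to 3 and 0.120, 0.141 and 0.139 in control replicates 1 to 3. All 3 PIO ratios were higher, and they lay closer together than the control ratios. The difference of log2 ratios was 0.26 (two-sided exact permutation p = 0.1, the smallest that 3 against 3 libraries allow, and 0.4 after adjustment over the 4 ratios computed). As shares of the summed FPKM of all 5 perilipins, Plin2 held 13.7% to 14.0% in PIO libraries and 10.8% to 12.4% in control libraries, and Plin3 held 85.9% to 86.3% with PIO and 87.6% to 89.2% in control.

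The perilipins of fat and oxidative tissue were not measurable. Plin1 (GeneID 25629), the coat of adipocyte droplets that holds Abhd5 back until hormones stimulate lipolysis, had 2, 0 and 1 reads in PIO replicates 1 to 3 and 0 in each control library. Plin4 (GeneID 363331), which coats early droplets in adipocytes, and Plin5 (GeneID 501283), which links droplets to mitochondria in muscle, heart and liver, were listed at 0 in all 6 libraries. Taken as a one-sided limit, a count of 0 allows up to about 3 reads, or 0.199 to 0.214 RPM (reads scaled to the library total), and the two-sided exact Poisson 95% interval used for the other members reaches 3.69 reads. No fold change is therefore given for them. These floors cover counting error only. A listed 0 need not mean absent RNA: Polr2h, a subunit gene of RNA polymerases that every cell uses, was at 0 in all 6 libraries as well.

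Hilpda (GeneID 100361568) had the largest fold difference of the tested members. It is best known as a hypoxia-induced gene, and its product slows lipolysis by inhibiting adipose triglyceride lipase. Hilpda had 13.5, 13.8 and 13.4 FPKM in PIO replicates 1 to 3 and 11.6, 11.5 and 9.54 FPKM in control replicates 1 to 3. The PIO libraries lay close together, and the spread within control came from control replicate 3. The means were 13.6 ± 0.226 FPKM with PIO and 10.9 ± 1.17 FPKM in control (SD, n = 3 each), 24.5% higher with PIO. The log2 fold change was 0.31 (SE 0.077, 95% interval 0.13 to 0.49) and did not pass (adjusted p = 0.290, limma). By unadjusted p, Hilpda ranked 127 of the 10410 genes, Mgll 203 and Plin2 283.

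Control replicate 3, which was also the library with the high Atf4 value, set part of the size of the Hilpda difference. Without it the log2 fold change of Hilpda was 0.22, and Hilpda remained higher in all PIO libraries than in the other control libraries. The part of that library in the Hilpda result was otherwise not tested. Hilpda is short, with a recovered length of 1042 bases, and rested on 198, 206 and 196 reads with PIO and 183, 169 and 147 reads in control. Exact Poisson 95% intervals on those reads span 11.6 to 15.8 FPKM over the PIO libraries and 8.06 to 13.5 FPKM over the control libraries, so these intervals overlap between the groups. RefSeq places a noncoding gene over the Hilpda locus on the rat assembly GRCr8. The sources used here do not say whether the counting used strand, so reads of the pair cannot be told apart. The same annotation places the protein-coding gene Hdgfl2 over Plin4, a tRNA gene over Mgll and a noncoding gene over Lipe. Hdgfl2 has deposited values of its own, and any part of these overlaps in the values of the members was not tested.

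Mgll (GeneID 29254) encodes the lipase that takes the last fatty acid from glycerol and also breaks down the endocannabinoid 2-arachidonoylglycerol. It had 6.96, 7.25 and 7.00 FPKM in PIO replicates 1 to 3 and 6.20, 6.05 and 5.88 FPKM in control replicates 1 to 3. The spread within each group was small beside the gap between them. The means were 7.07 ± 0.157 FPKM with PIO and 6.04 ± 0.159 FPKM in control (SD, n = 3 each), 17.0% higher with PIO. The log2 fold change was 0.21 (SE 0.058, 95% interval 0.078 to 0.34) and did not pass (adjusted p = 0.304, limma). It lay between 0.19 and 0.23 when any 1 library was left out, the narrowest such range of these 3 genes.

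**Figure D2:**
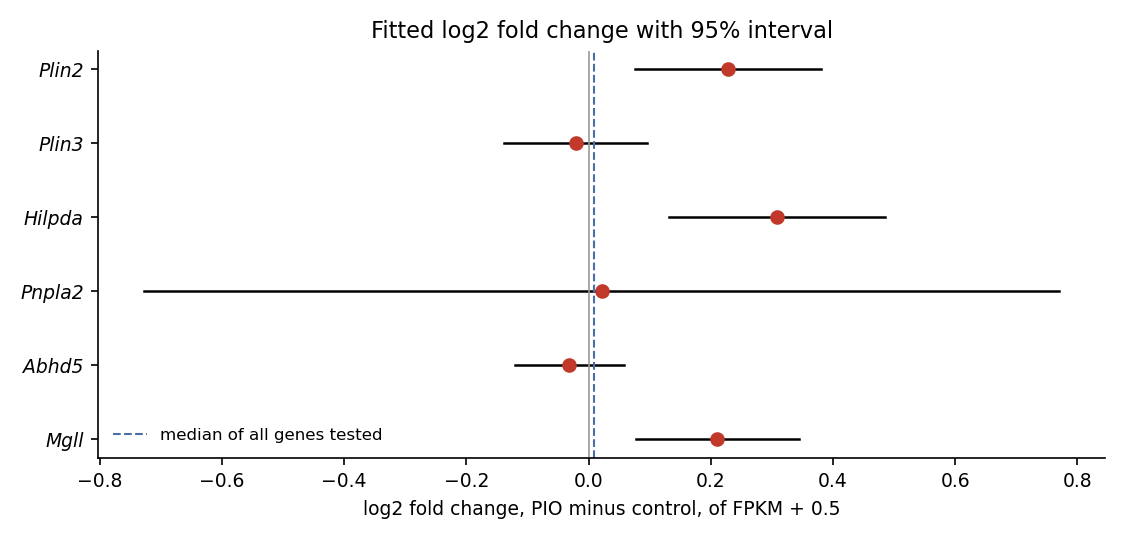
Fitted log2 fold change of FPKM + 0.5, PIO minus control (horizontal axis), for the 6 tested genes, with points for the estimate and lines for the 95% interval from limma. The intervals of Hilpda (0.13 to 0.49), Plin2 (0.076 to 0.38) and Mgll (0.078 to 0.34) lie above the median of all genes tested (0.0094), before any adjustment for the number of genes.

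Since these 3 genes lay higher together, their promoters are shown as RefSeq gives them on the rat assembly GRCr8, each as the 250 bases before the annotated start, 5′ to 3′. Capitals mark ACGTG, the core of the element that hypoxia-inducible factors bind, on either strand. The sequences were looked up by symbol, and the build behind the deposited values is unclear, so they locate nothing in the expression data. Plin2 has 2 annotated starts in the table, the one shown is the one with a match, and the other window held none.
Hilpda, chr4:58836213-58836462, plus strand: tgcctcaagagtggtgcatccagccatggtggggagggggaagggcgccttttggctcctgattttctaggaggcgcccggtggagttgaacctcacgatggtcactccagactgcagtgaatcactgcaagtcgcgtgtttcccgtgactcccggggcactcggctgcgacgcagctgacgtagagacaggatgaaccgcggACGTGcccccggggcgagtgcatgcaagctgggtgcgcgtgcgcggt
Mgll, chr4:122749186-122749435, plus strand: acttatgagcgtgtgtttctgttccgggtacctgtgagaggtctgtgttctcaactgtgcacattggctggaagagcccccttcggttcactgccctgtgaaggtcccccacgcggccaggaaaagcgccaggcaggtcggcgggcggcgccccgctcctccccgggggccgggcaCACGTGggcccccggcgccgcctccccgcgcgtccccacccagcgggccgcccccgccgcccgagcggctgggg
Plin2, chr5:106229019-106229268, minus strand: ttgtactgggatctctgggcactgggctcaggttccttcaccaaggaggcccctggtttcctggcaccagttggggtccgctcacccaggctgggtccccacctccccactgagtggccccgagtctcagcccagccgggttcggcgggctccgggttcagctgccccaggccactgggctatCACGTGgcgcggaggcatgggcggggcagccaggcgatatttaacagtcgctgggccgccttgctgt

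ACGTG occurred on either strand in 16.6% of the 33469 windows of the same length in the RefSeq table. That share is over windows of any base composition and was not matched for GC content. The windows shown had a GC content of 63.6% (Hilpda), 72.4% (Mgll) and 67.2% (Plin2), and that of Abhd5, without ACGTG, had 74.4%. In Hilpda the ACGTG match began 47 bases before the start. In Mgll and in Plin2 the match lay within CACGTG, a palindrome known as an E-box, which began 74 and 67 bases before the start. That 6-base form occurred in 5.59% of windows and was noticed after the sequences had been read. Of the members, 9 had a window in the table, and the windows of Plin1, Plin3, Plin4, Plin5, Pnpla2 and Abhd5 held no ACGTG. The same element is also known with G as its first base, and GCGTG, which is not capitalized above, was in the windows of Hilpda, Mgll and Plin5 and in 25.9% of all windows, but in neither window of Plin2. The direct repeat AGGTCANAGGTCA that PPARs bind with their RXR partners was in none of the members' windows and in 0.0508% of all windows. Only this exact repeat was searched, so near matches and sites outside the windows were not seen. Absence of so rare a string says little about the members. A single AGGTCA was in the windows of Abhd5 and Plin5 and in 14.1% of all windows. The GC box GGGCGG and the CCAAT box were searched as well. GGGCGG was in windows of Mgll, Plin2, Plin3, Plin4, Plin5, Pnpla2 and Abhd5 and in 30.5% of all windows. CCAAT was in windows of Mgll, Plin1, Plin3 and Plin5 and in 34% of all windows. Neither string set Hilpda, Plin2 and Mgll apart from the other members. A match is a description of the letters and no evidence of binding.

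Pnpla2 (GeneID 361676), the gene of the first lipase of the pathway, was the least reproducible member. It had 8.46, 3.76 and 2.61 FPKM in PIO replicates 1 to 3 and 4.78, 3.91 and 4.37 FPKM in control replicates 1 to 3. PIO replicate 1 lay above every control library and PIO replicates 2 and 3 below every one. The reads were 265, 120 and 82 with PIO and 161, 123 and 144 in control. The exact Poisson 95% interval was 7.47 to 9.54 FPKM for PIO replicate 1 and 2.08 to 3.24 FPKM for PIO replicate 3, so the spread within the PIO group exceeded counting error. The log2 fold change was 0.021 (SE 0.33, 95% interval -0.73 to 0.77, adjusted p = 0.986, limma). Its sign depended on the library left out, at -0.41 when PIO replicate 1 was dropped and 0.35 when PIO replicate 3 was, and it was -0.0040 under TPM scaling. A change of Pnpla2 in either direction was therefore not detectable here. A locus annotated as similar to Pnpla2 (LOC100911615) had 1, 4 and 4 reads with PIO and 3, 2 and 3 in control, and reads of near-identical copies may be split between them.

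Abhd5 (GeneID 316122), whose product activates the Pnpla2 lipase, had the smallest standard error of the 6. It had 27.1, 26.3 and 27.0 FPKM in PIO replicates 1 to 3 and 26.9, 27.9 and 27.4 FPKM in control replicates 1 to 3. PIO replicates 1 and 3 lay within the lower part of the control range. The log2 fold change was -0.031 (SE 0.039, 95% interval -0.12 to 0.057, adjusted p = 0.751, limma), and it stayed between -0.060 and -0.019 under all 19 alternatives run. On the fold scale the interval covers 0.92 to 1.04 times the control level. Lipe (GeneID 25330), which encodes hormone-sensitive lipase, had 0 reads in each PIO library and 1, 0 and 0 reads in control replicates 1 to 3.

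Ratios within a library put the lipase beside its regulators. Hilpda over Pnpla2 was 1.60, 3.68 and 5.12 in PIO replicates 1 to 3 and 2.43, 2.94 and 2.19 in control replicates 1 to 3. Abhd5 over Pnpla2 was 3.20, 7.02 and 10.3 with PIO and 5.63, 7.13 and 6.28 in control. In both ratios PIO replicate 1 was the lowest of the 6 libraries and PIO replicate 3 the highest, in the reverse order of Pnpla2 itself. Mgll over Pnpla2 had the same order at its ends, with 0.823, 1.93 and 2.68 with PIO and 1.30, 1.55 and 1.35 in control. The two-sided exact permutation p was 0.6, 0.9 and 0.7 for these ratios in the order given, and 0.9 for each after adjustment over the 4.

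**Figure D3:**
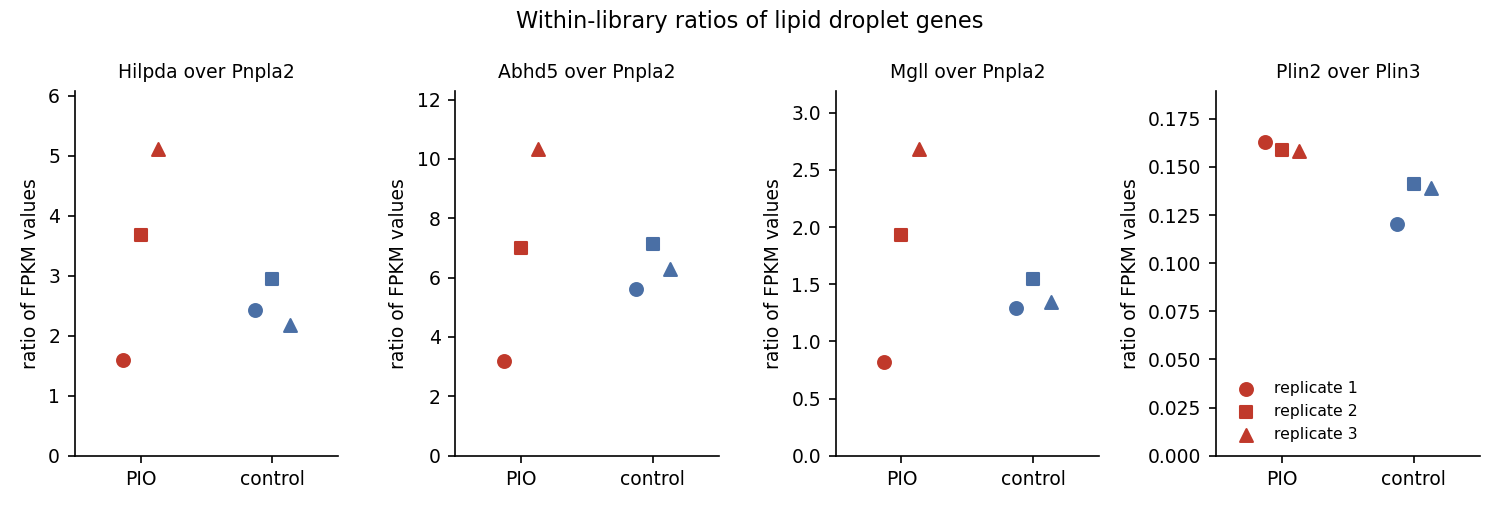
Ratio of FPKM values within each library (vertical axes, from 0) for 4 pairs of genes, PIO libraries in red and control libraries in blue, with symbols for replicates 1 to 3. The ratios over Pnpla2 fan out among the PIO libraries, from 1.60 to 5.12 for Hilpda, while Plin2 over Plin3 lies at 0.158 to 0.163 with PIO and 0.120 to 0.141 in control.

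By level, the tested members fell in the same order in PIO and in control libraries: Plin3, Abhd5, Hilpda, Plin2, Mgll and Pnpla2. Plin3 was 2.28 times Abhd5 with PIO and 2.26 times in control. Abhd5 was 1.98 times Hilpda with PIO and 2.52 times in control. Hilpda was 1.39 times Plin2 with PIO and 1.32 times in control, and Plin2 was 1.38 times Mgll with PIO and 1.37 times in control. In each of these steps the libraries of a group did not overlap between neighbours. Mgll and Pnpla2 overlapped in the PIO libraries and did not in control. The summed level of all 10 members was 119 to 126 FPKM in PIO libraries and 116 to 121 FPKM in control libraries.

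**Figure D4:**
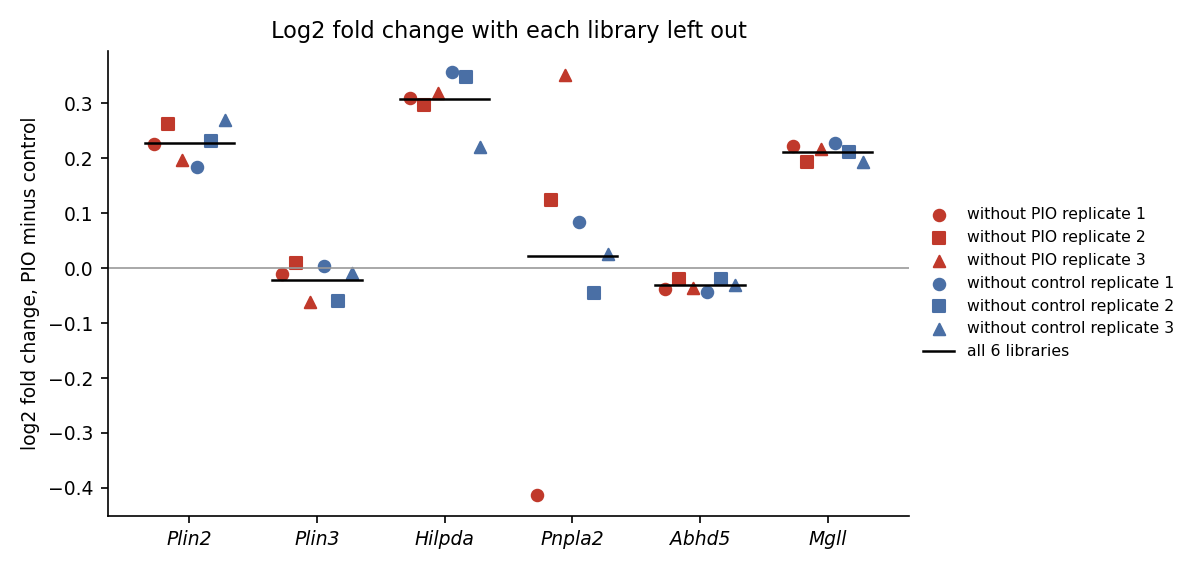
Log2 fold change, PIO minus control (vertical axis), of the 6 tested genes with each library left out in turn, red symbols for a PIO library left out and blue for a control library, with a bar for the value with all 6. Pnpla2 runs from -0.41 to 0.35, whereas Hilpda stays at 0.22 or more and Mgll at 0.19 or more.

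The 3 members with the smallest p were also described by the genes that followed them most closely over the 6 libraries. For Hilpda these were Ctr9, Ppp2cb and Dolk (Pearson r of 0.995, 0.989 and 0.984 on log2 values). For Mgll they were Safb, Ube2q1 and Fam220a (0.994, 0.992 and 0.991), and for Plin2 Gna12, Ube2o and Chst11 (0.989, 0.986 and 0.985). With 6 points and 10410 genes such values are easily reached: 81, 61 and 35 genes with an established symbol had an r of at least 0.95 with Hilpda, Mgll and Plin2 in turn. The points also share the group difference.

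Genes that make triglyceride had a median close to that of all genes. Of 20 genes, 15 were tested, 9 were higher and 6 lower with PIO, none passed the threshold, and the median log2 fold change was 0.0055, against 0.0094 over all genes tested. Acsl4, an acyl-CoA synthetase that prefers arachidonate, had the smallest p: 83.9, 76.7 and 73.2 FPKM with PIO and 90.6, 98.4 and 95.3 FPKM in control (log2 fold change -0.28, limma adjusted p = 0.257). Mogat1, which adds a fatty acid to monoglyceride, the substrate of Mgll, had 1.58, 1.71 and 1.69 FPKM with PIO and 1.21, 0.842 and 1.34 FPKM in control (0.42, adjusted p = 0.337, limma). Both were without overlap between the groups, in opposite directions. The lysophosphatidic acid acyltransferase genes Agpat1 and Agpat2 averaged 34.0 and 32.1 FPKM with PIO and 31.4 and 29.4 FPKM in control (limma adjusted p = 0.391 and 0.411).

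Genes of droplet formation and growth had a median of 0.0081, with 10 of 15 tested members higher, 5 lower and none past the threshold. Ldaf1, the partner of seipin at sites where droplets form, is listed under its older symbol Tmem159. It had 5.89, 5.49 and 5.64 FPKM with PIO and 4.99, 4.63 and 5.04 FPKM in control (log2 fold change 0.20, limma adjusted p = 0.340). Rab18, a small GTPase found on droplets, averaged 14.3 FPKM with PIO and 15.6 FPKM in control, and Rab3gap2, a subunit of its exchange factor, 14.6 FPKM with PIO and 16.0 FPKM in control (limma adjusted p = 0.446 and 0.371). Copb1, a coat subunit of the COPI vesicles that help deliver lipases to droplets, averaged 79.8 FPKM with PIO and 83.1 FPKM in control (limma adjusted p = 0.475). Cidec, which joins droplets in adipocytes, was listed at 0 in every PIO library and in control replicates 1 and 2, and at 0.0401 FPKM in control replicate 3.

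Other lipases and regulators of lipolysis were split evenly, with 8 of 15 tested members higher, 7 lower, none past the threshold and a median of 0.020. The catalytic subunit genes of protein kinase A, which phosphorylates perilipin 1 and hormone-sensitive lipase in adipocytes, lay on opposite sides. Prkaca had 58.6, 60.8 and 59.1 FPKM with PIO and 54.4, 54.7 and 54.6 FPKM in control (log2 fold change 0.12, limma adjusted p = 0.304), while Prkacb averaged 62.8 FPKM with PIO and 67.5 FPKM in control (-0.10, limma adjusted p = 0.362). Pde3b, a phosphodiesterase that lowers cyclic AMP, averaged 30.4 FPKM with PIO and 34.2 FPKM in control (-0.17, limma adjusted p = 0.340). Faah, which hydrolyses the endocannabinoid anandamide, was low, at 0.908, 1.03 and 0.725 FPKM with PIO and 0.545, 0.523 and 0.461 FPKM in control (0.45, limma adjusted p = 0.304). G0s2, which encodes another inhibitor of adipose triglyceride lipase and is a known PPAR target, was listed at 0 in all 6 libraries.

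In sterol ester storage the median was again close to that of all genes, with 5 of 8 tested members higher, 3 lower, none past the threshold and a value of 0.0099. Soat1, the enzyme that esterifies cholesterol for storage, averaged 35.2 FPKM with PIO and 38.3 FPKM in control, and Soat2 averaged 1.12 FPKM with PIO and 1.28 FPKM in control (limma adjusted p = 0.544 and 0.663). The lysosomal acid lipase gene Lipa averaged 16.9 FPKM with PIO and 16.1 FPKM in control, and the sterol carrier gene Npc2 averaged 94.6 FPKM with PIO and 91.2 FPKM in control (limma adjusted p = 0.618 and 0.636).

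Because Hilpda answers to hypoxia as well as to PPARs, both gene groups were set beside it. Of 20 hypoxia genes 17 were tested, 12 were higher and 5 lower, none passed, and the median was 0.018. Adm, the adrenomedullin gene, had 0.586, 1.08 and 1.07 FPKM with PIO and 0.273, 0.535 and 0.534 FPKM in control (log2 fold change 0.57, limma adjusted p = 0.340). Higd1a, a mitochondrial hypoxia gene, had 44.7, 48.9 and 48.8 FPKM with PIO and 44.5, 44.4 and 36.8 FPKM in control (0.18, limma adjusted p = 0.389). As in Hilpda, control replicate 3 was the lowest library of Higd1a, whose log2 fold change came to 0.092 once that library was left out. The list was mixed in that library. Pfkfb3 and Ldha were also lowest there, whereas Vegfa, Ndrg1, Ankrd37, Ddit4, Kdm3a and P4ha1 were highest there. Ddit4 had 42.1, 43.9 and 103 FPKM in control replicates 1 to 3. Pdk1, a kinase of pyruvate dehydrogenase, averaged 27.5 FPKM with PIO and 25.4 FPKM in control, and the cytokinesis gene Anln averaged 16.4 FPKM with PIO and 18.7 FPKM in control (limma adjusted p = 0.413 and 0.340).

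Of 30 PPAR target genes that are not members, 5 were listed at 0 in all 6 libraries and 20 were tested. Of the tested ones 16 were higher and 4 lower, against 54% higher among all genes. Their median was 0.068, and 1 passed. That gene was Cpt1a, which controls the entry of fatty acids into mitochondria. It rose to 12.7, 12.3 and 12.5 FPKM with PIO, against 5.90, 6.49 and 5.76 FPKM in control (log2 fold change 0.99, SE 0.061, limma adjusted p = 0.00159). Of the tested targets, 8 were higher without overlap and 1 lower, against 10.5% and 8.09% of all genes tested. The oxidation genes Acaa2 and Cpt2 averaged 29.2 and 10.1 FPKM with PIO and 25.6 and 9.17 FPKM in control, and the transcription factor gene Klf9 averaged 0.856 FPKM with PIO and 1.46 FPKM in control (limma adjusted p = 0.304, 0.379 and 0.308). The 6 tested droplet genes had a median of 0.12, with 4 higher and 2 lower, but they were chosen with earlier results of these data known. In the mast cell list, 5 of 12 tested genes were higher, 7 were lower and none passed, with a median of -0.012. Those with the smallest p were Il1rl1, Kit, Fcer1g and Ms4a2, with log2 fold changes of -0.15, -0.16, 0.14 and -0.063 (limma adjusted p = 0.304, 0.371, 0.411 and 0.447). Fcer1g was at 0.073 without control replicate 2 and at 0.064 under quantile normalization.

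**Figure D5:**
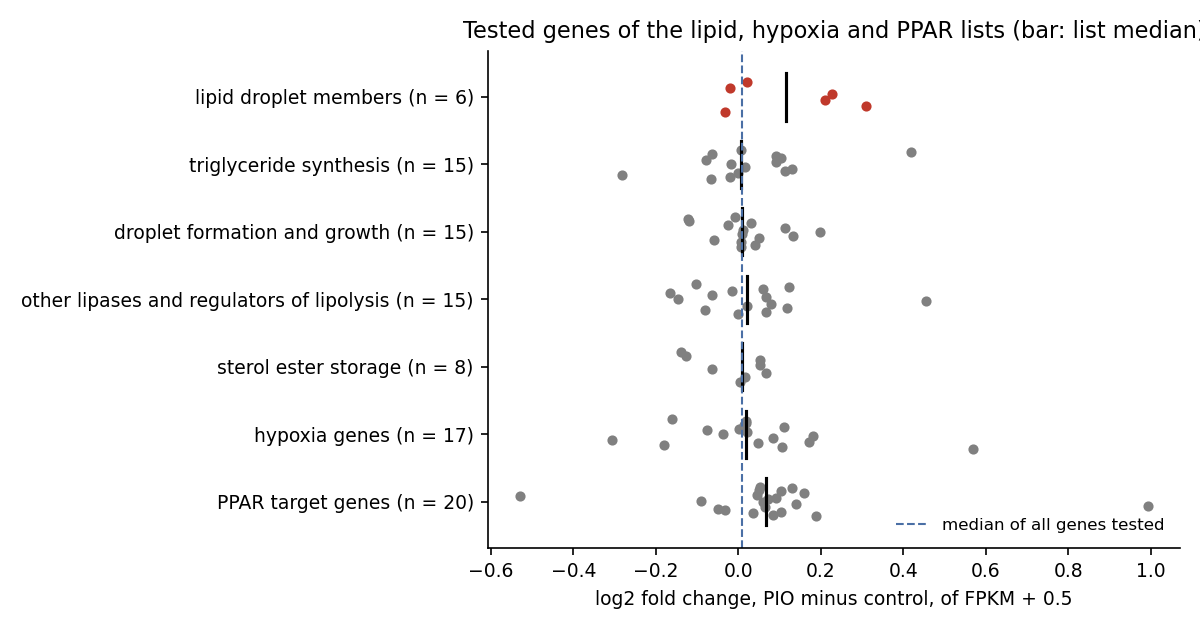
Log2 fold change of FPKM + 0.5, PIO minus control (horizontal axis), of the tested genes of the droplet list, in red, and of the lipid, hypoxia and PPAR target lists, in grey, with a bar for the list median and a dashed line for the median of all genes tested. The medians drawn run from 0.0055 for triglyceride synthesis to 0.12 for the droplet genes, and Cpt1a stands alone at 0.99.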

How the data were processed

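The authors deposited FPKM per gene for 3 PIO and 3 control libraries, made with a stranded mRNA kit per the labels' protocols. Tools named, per the submitters' processing notes, with no roles given and here in alphabetical order, are BWA 0.7.5a, Cufflinks, DESeq, FastQC 0.11.5, HISAT2 2.2.1.0, HTSeq, SAMtools 1.3.1 and Trimmomatic 0.36. The build named is GRCh38, a human one, although the gene identifiers are those of the rat. Reads that come out whole (tolerance 0.001) at a whole gene length were recovered for 15428 of the 15429 genes above 0, and they sum to at least 99.5% of each library total. The smallest length that fits was taken.

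Tests were run on log2(FPKM + 0.5) of genes averaging 0.5 FPKM or more, in limma 3.58.1 (R 4.3.3), on group alone with a trended variance, two-sided, with Benjamini-Hochberg adjustment over all of them at 0.05. Fold changes on this scale understate those of low genes. Within-library ratios were compared by an exact permutation test (scipy 1.17.1). The code was tested on simulated data. The members and lists were chosen with earlier results of these data known. Genes named from a list are those past the threshold and up to 4 with the smallest p, with G0s2, Cidec and Cpt1a in any case, and the 3 genes most correlated with each of the 3 members of smallest p. Of 165 listed genes all but 1 were matched, 2 of them through the GeneID. Alternatives changed the pseudocount (0.1, 1), the minimum mean (none, 1 and 5 FPKM), the scaling (median of ratios, quantile, TPM) and the variance model (untrended, robust, weighted by library). Further ones added the replicate number as a block, limma-voom on recovered reads, and each library left out in turn.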

Additional observations from a re-analysis of the deposited data

How the results depend on the processing

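No droplet gene was called under any of the 19 alternatives, and Hilpda, Plin2 and Mgll had positive log2 fold changes in all of them. These ran from 0.22 to 0.36, 0.18 to 0.27 and 0.18 to 0.23 in that order, with limma adjusted p of 0.171 to 0.659, 0.192 to 0.680 and 0.192 to 0.671. Changes of the filter or the variance trend, the robust fit and the replicate block cannot alter a fold change, so only the other alternatives could have turned a sign. The number of genes called among all tested, 4 with every library, was 1 without a filter, 2 without a variance trend, 7 in the robust fit, 7 in limma-voom on recovered reads and 2 to 4 with 1 library left out, the 2 without control replicate 1. With the replicate block it was 3, and no droplet gene was among them. Same-numbered libraries did not pair, with correlations of their deviations of -0.068, 0.028 and 0.078, and not every library correlated best with its own number. Signs turned for Plin3 and Pnpla2 only, among the tested members and the 29 genes named from the other lists. The genes named by correlation were not run under the alternatives. Plin3 ran from -0.062 to 0.0092 with 1 library left out, and Pnpla2 from -0.41 to 0.35. Pnpla2 was also at -0.0040 under TPM scaling and -0.010 with sample weights. Of the ratios (log2 difference, PIO minus control), Hilpda over Pnpla2 ran from -0.045 to 0.79, Abhd5 over Pnpla2 from -0.41 to 0.43 and Mgll over Pnpla2 from -0.14 to 0.71 with 1 library left out, whereas Plin2 over Plin3 kept its sign (0.19 to 0.30). The replicate block leaves these differences the same by construction, and recovered reads give nearly the same ratios. Neither was therefore a check on the sign. The cause of these shifts was not tested beyond which library was left out. Of the 29 genes named from the other lists none turned sign with 1 library left out. Among them 9 moved by over 1.5 times with some library left out: Agpat2, Cd68, Fcer1g, Higd1a, Lipa, Npc2, Rab18, Soat1 and Soat2, none of them called. A minimum mean of 5 FPKM left no value for Pnpla2. Plin1, Plin4, Plin5 and Lipe, with 0 to 2 reads per library, had too few to compare.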
